A study of Mus musculus with 14 samples.

Results

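The 37 genes described here are the integrins and the core adaptors of focal adhesions: 18 integrin alpha chains, 8 integrin beta chains and 11 adaptors (Ilk, Parva, Lims1, Lims2, Tln1, Tln2, Vcl, Zyx, Pxn, Fermt2 and Ptk2). The integrin chains go by gene family. The adaptors were picked by name, and relatives such as Fermt1, Fermt3, Parvb and Parvg stand in a list of other regulators. No threshold on a measured value was used, but the members were chosen with earlier results of these data known. All 37 were found among the 35171 gene rows of the bulk tables and the 28692 genes of a single-cell matrix from mouse liver. Integrins are receptors made of 1 alpha and 1 beta chain that join the extracellular matrix to the actin skeleton. Talins (Tln1, Tln2) and kindlin-2 (Fermt2) bind the tail of the beta chain and switch the receptor on. Integrin-linked kinase (Ilk) holds a complex with parvin (Parva) and a PINCH protein (Lims1 or Lims2). Vinculin (Vcl), zyxin (Zyx), paxillin (Pxn) and focal adhesion kinase (Ptk2) are further parts of the adhesion. In liver fibrosis these receptors are known for letting stellate cells sense a stiff matrix and for releasing latent TGF-beta, a task of integrins that hold the Itgav chain.

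The study asked how UDP-glucose, a ligand of the purinergic receptor P2Y14, acts on stellate cells, pericytes that line the liver sinusoid and store vitamin A. RNA was measured in 13 bulk libraries and 1 single-cell library, all from mice with no liver damage. Quiescent stellate cells (4 libraries) were LratCre+, TdTom+ cells in C57BL/6J that were never plated and were sorted for vitamin A and TdTom, so that the Lrat promoter driving Cre and the vitamin A signal decide which cells they hold. Whole liver (3 libraries) carries the same strain label. Cultured stellate cells are labelled Balbc, without mention of a sort, and were plated for 5 h in 10% fetal bovine serum and then kept for 24 h on plastic in 0.1% serum, without treatment (3 control libraries) or with 10 µM UDP-glucose (3 libraries, whose titles say UDP and whose descriptions say UDP-glucose). The single-cell library came from all cells of a digested C57BL/6 liver. Ages and sexes are not given in the labels, and whether each library is its own animal or culture is not said either, so a p-value speaks for the spread among these libraries alone, which may be technical.

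Levels in bulk RNA are in TPM, which divides by transcript length and brings each library to the same sum, and are listed by library in the order of the replicate number. Read depth is lost in this unit and therefore unknown for the bulk libraries. Log2 TPM of libraries of the same group correlated at 0.981 to 0.991 across 12931 genes. The sorted cells matched their label: the summed TPM of 16 stellate markers was 63299 to 70018 in quiescent libraries, 81.9 to 184 in liver and 10876 to 11607 in control cultures, and that of 12 hepatocyte markers was 58.1 to 79.7 in quiescent libraries against 55644 to 79733 in liver. Markers of other cells were also seen in the sorted libraries. The Kupffer cell list (13 of 13 averaging 1 TPM or more in quiescent cells, summed TPM 4547 to 5531 there, 78.4 to 148.9 in liver and 325 to 364 in control cultures) was led by Fcna at 4549 ± 432 TPM (SD, n = 4), while Clec4f, a defining Kupffer marker, averaged 32.9 ± 10.2 TPM in quiescent cells and 20.4 ± 6.62 TPM in liver (SD, n = 3) and was listed at 0 in all control cultures. The sinusoidal endothelial list (14 of 14 measured markers, summed TPM 6801 to 7865 in quiescent cells, 50.003 to 122.6 in liver and 794 to 822 in control cultures) was led by Plvap at 6489 ± 370 TPM, while Stab2, a defining marker, averaged 32.1 ± 17.0 TPM in quiescent cells and 5.13 ± 2.19 TPM in liver and was listed at 0 in every cultured library. The part of these other cells in the results below was not tested, and in bulk RNA fewer cells of a type and less RNA per cell cannot be told apart.

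The members lie on 16 chromosomes of GRCm38. For 24 of them RefSeq gives a promoter (29 start sites, GRCm38.p6). The 250 bases before the start are printed for Itga8 and Itga2b, which fell most in culture among members with an entry, and for Vcl and Fermt2, which hold a CArG box, the name of the motif bound by serum response factor. Capitals mark matches, on either strand, of the CArG box, the TEAD motif GGAATG and the Sp1 motif GGGCGG, and the AP-1 motif TGANTCA and the GATA motif AGATAA were searched too.
Itga8, chr2:12301945-12302194, minus strand: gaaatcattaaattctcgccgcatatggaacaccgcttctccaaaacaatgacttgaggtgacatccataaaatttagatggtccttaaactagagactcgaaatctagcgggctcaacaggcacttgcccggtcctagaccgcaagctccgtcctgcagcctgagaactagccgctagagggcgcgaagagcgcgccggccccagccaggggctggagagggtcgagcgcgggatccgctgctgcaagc
Itga2b, chr11:102469884-102470133, minus strand: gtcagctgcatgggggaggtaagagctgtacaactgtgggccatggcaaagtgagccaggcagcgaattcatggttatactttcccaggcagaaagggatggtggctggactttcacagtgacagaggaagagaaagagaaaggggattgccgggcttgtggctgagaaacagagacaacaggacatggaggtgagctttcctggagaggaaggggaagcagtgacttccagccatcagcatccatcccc
Vcl, chr14:20929148-20929397, plus strand: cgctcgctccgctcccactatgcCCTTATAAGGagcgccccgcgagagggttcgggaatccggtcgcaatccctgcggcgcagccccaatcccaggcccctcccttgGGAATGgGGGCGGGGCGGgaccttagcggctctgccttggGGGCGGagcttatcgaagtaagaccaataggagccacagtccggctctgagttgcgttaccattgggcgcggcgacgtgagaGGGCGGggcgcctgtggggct
Fermt2, chr14:45530066-45530315, minus strand: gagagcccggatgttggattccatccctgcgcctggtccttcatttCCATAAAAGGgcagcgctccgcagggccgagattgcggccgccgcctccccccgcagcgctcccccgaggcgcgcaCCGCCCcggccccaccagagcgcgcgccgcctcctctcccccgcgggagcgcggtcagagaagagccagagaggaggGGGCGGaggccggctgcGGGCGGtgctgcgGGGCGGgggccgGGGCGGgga
The CArG box was found in 3 of the 29 member promoters (Vcl, Fermt2 and 1 of 2 starts of Itgb6) and in 1.47% of 32851 mouse promoters of the same length. The TEAD motif was in 3 of 29 and 12.6% of all, the AP-1 motif in 2 and 6.75%, the GATA motif in 2 and 9.99%, and the Sp1 motif in 12 and 32.7%. None of the 5 motifs was found in the Itga8 or Itga2b window, which says only that these letters are not there. A match is a description of the sequence and not a bound site.

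Stellate cells carried a wide set of these receptors and liver tissue as a whole very little of it. Of the 37 members, 27 averaged 1 TPM or more in quiescent cells, 19 in liver, 25 in control cultures and 24 in UDP-glucose cultures. A mean of at least 100 TPM was reached by 14 members in quiescent cells, 9 in control cultures, 10 in UDP-glucose cultures and 0 in liver. The summed TPM of the 26 integrin chains was 2131 ± 236 in quiescent cells (SD, n = 4), 62.2 ± 9.52 in liver, 1168 ± 136 in control cultures and 1359 ± 116 in UDP-glucose cultures (SD, n = 3 each). That of the 11 adaptors was 2167 ± 160, 160.0 ± 26.6, 2115 ± 161 and 2626 ± 130 in the same order. The integrin sum was thus lower in control cultures than in quiescent cells, while the adaptor sums of these groups overlapped (1945 to 2297 against 1971 to 2289). Among the 21 members that averaged 5 TPM or more in any group, quiescent library 3 was the lowest of its group for 17 and control library 2 the highest of its group for 18. The median coefficient of variation of these members was 12.6% in quiescent cells, 18.2% in liver, 10.4% in control cultures and 9.22% in UDP-glucose cultures.

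**Figure D1:**
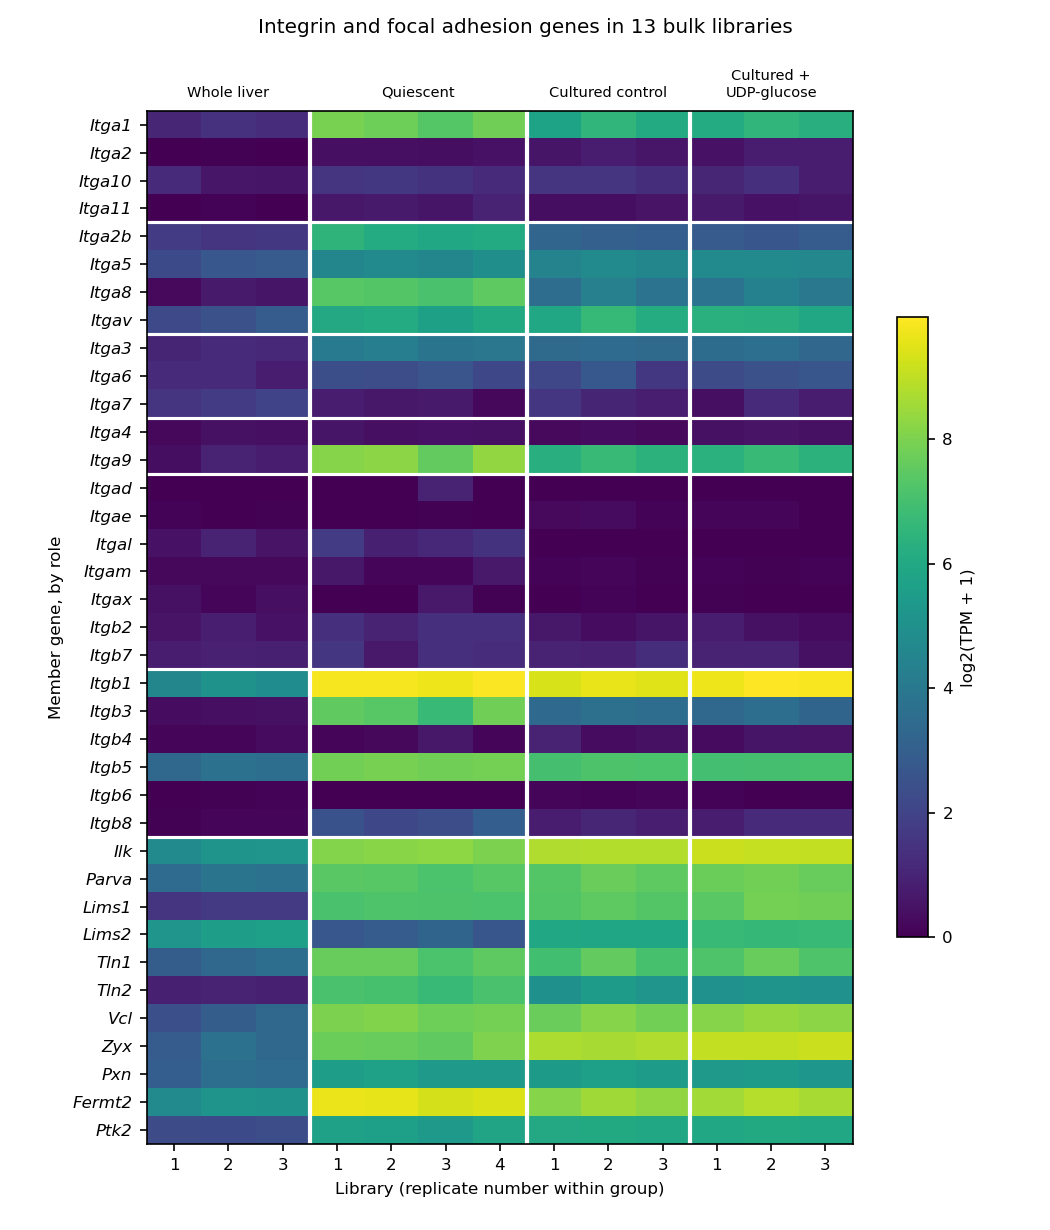
Level of all 37 members (rows, grouped by role with white lines: collagen-binding, RGD-binding, laminin-binding and alpha4/alpha9 chains, leukocyte integrins, beta chains, adaptors) in the 13 bulk libraries (columns), as log2(TPM + 1) on the colour scale. Quiescent cells are bright in Itga1, Itga2b, Itga8, Itga9 and Itgb3, Lims2 is dimmer there than in liver or culture, and leukocyte integrins stay near 0 throughout.

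The first comparison set the quiescent cells against whole liver, to see which members mark the stellate cell. Genes were called at an adjusted p under 0.05 (limma on log2(TPM + 1), Benjamini-Hochberg over all genes averaging 1 TPM or more) and a log2 fold change of 1 or more in either direction. Of the 28 members tested, 22 were higher and 2 lower in quiescent cells, and 4 were not called (Itga10, Itgal, Itgb2 and Itgb7). Across all 12643 genes tested, 67.0% were higher and 10.9% lower (77.9% in either direction), so the count of 22 stands against a background in which most genes were higher. The median log2 fold change was 3.53 over the members and 1.62 over all genes, and 21 of the 28 members lay above that all-gene median. The libraries of the groups did not overlap for 26 of 28 members, against 91.1% of all genes. When libraries were rescaled so that the all-gene median came to 0.04 (median of ratios) or 0.11 (quantile normalisation), 19 of 28 members were still called higher while 26.7% and 28.1% of all genes were.

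Among the alpha chains, Itga9, Itga8 and Itga1 stood farthest from liver. Itga9, whose product binds tenascin and osteopontin, measured 286, 301, 188 and 325 TPM in quiescent cells and 0.287, 0.945 and 0.686 TPM in liver (log2 fold change 7.39, SE 0.20, adjusted p = 4.62e-11). Itga8, an RGD-binding chain of mesenchymal cells, measured 164, 155, 134 and 179 TPM against 0.202, 0.648 and 0.466 TPM (6.79, SE 0.14, adjusted p = 8.01e-12). Itga1, the collagen IV-binding chain, measured 244, 218, 159.8 and 223 TPM against 1.07, 1.71 and 1.41 TPM (6.46, SE 0.16, adjusted p = 2.27e-11). No quiescent library came near a liver library for any of these. Itga2b, the alpha chain of the platelet fibrinogen receptor, measured 87.8, 69.5, 59.3 and 66.3 TPM in quiescent cells and 2.36, 1.82 and 2.08 TPM in liver (log2 fold change 4.53, SE 0.15, adjusted p = 1.49e-10). Itgav measured 63.4, 68.3, 48.9 and 65.3 TPM against 3.56, 4.46 and 6.49 TPM (3.44, SE 0.18). Itga5, the fibronectin receptor chain, measured 23.0, 25.9, 22.7 and 29.9 TPM against 3.71, 5.43 and 6.30 TPM (2.12, SE 0.17). Both groups of these chains were also apart in every library, although Itga5 came to 0.36 and 0.39 under the rescalings and was no longer called. Of the laminin-binding chains, Itga3 measured 15.6, 17.9, 13.1 and 14.6 TPM in quiescent cells and 1.03, 1.33 and 1.21 TPM in liver (2.89, SE 0.13). Itga6 was called higher at 1.33 but came to 0.02 and -0.19 under the rescalings. Itga7, a chain of muscle, was the only alpha chain called lower, at -1.17 (0.518 ± 0.259 TPM, n = 4, against 2.41 ± 0.612 TPM, n = 3).

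The beta chains followed the same order of levels in quiescent cells in every library: Itgb1 first, then Itgb5, then Itgb3. Itgb1, the partner of most matrix-binding alpha chains, measured 909.9, 896, 824 and 959 TPM in quiescent cells and 23.0, 33.2 and 27.6 TPM in liver (log2 fold change 4.97, SE 0.14, adjusted p = 4.68e-11). Itgb5, a partner of Itgav, measured 229, 242, 219.9 and 234 TPM against 9.40, 12.6 and 10.96 TPM (4.28, SE 0.12). Itgb3, the partner of both Itga2b and Itgav, measured 181, 164, 102 and 219.9 TPM against 0.259, 0.334 and 0.378 TPM (6.93, SE 0.22, adjusted p = 1.26e-10). Itgb3 thus had the second largest fold of the 28 members, after Itga9, and quiescent library 3 was its lowest. Itgb8, another activator of latent TGF-beta when joined to Itgav, was called higher at 2.39 with a mean of 4.76 ± 1.45 TPM. Since Itga2b and Itgb3 together form the platelet receptor, 11 platelet markers were read beside them. In quiescent cells 2 of the 11 averaged 1 TPM or more. The 2 that were tested were both higher than in liver, at 4.28 (Pf4) and 1.60, beside 67.0% of all genes higher. Pf4 averaged 38.1 ± 7.14 TPM in quiescent cells (SD, n = 4). Ppbp averaged 0.0254 TPM, Gp9 0.0653 TPM, Gp1ba 0.144 TPM and Tubb1 0.0214 TPM, and Treml1 was listed at 0. The part of platelet RNA was not tested. The summed TPM of the 11 platelet markers was 40.6 to 58.5 in quiescent cells, 3.22 to 5.47 in liver and 3.49 to 6.43 in control cultures.

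Leukocyte integrins were near the bottom of the scale. Itgal, Itgb2 and Itgb7 averaged 1.54, 1.42 and 1.40 TPM in quiescent cells and were not called, with log2 fold changes of 0.64, 0.65 and 0.37. The other four (Itgad, Itgae, Itgam and Itgax) had means under 1 TPM in all groups and were not tested, and 68.7% of the exon bases of Itgam and 19.7% of those of Itgad lie in other gene models. Itga2, Itga4, Itga11, Itgb4 and Itgb6 also stayed under 1 TPM in every group. These 9 members make up the untested remainder.

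Of the 11 adaptors, 10 were higher in quiescent cells and 1, Lims2, was lower, beside 67.0% of all genes higher and 10.9% lower. Tln2, the talin of muscle and brain, measured 135, 134, 102 and 134 TPM against 0.839, 0.986 and 0.834 TPM in liver (log2 fold change 6.07, SE 0.13). Lims1 measured 136, 148, 143 and 140.4 TPM against 1.90, 2.24 and 2.27 TPM (5.51, SE 0.11). Vcl measured 253, 269, 216 and 235 TPM against 4.38, 6.61 and 8.90 TPM (5.04, SE 0.19). These folds were the top 3 among adaptors. Fermt2 measured 812, 761, 627 and 689 TPM against 26.4, 34.9 and 33.2 TPM (4.48, SE 0.14). Zyx measured 209.8, 199.6, 182 and 259.5 TPM against 6.51, 12.0 and 8.97 TPM (4.42, SE 0.19). Tln1 measured 201, 199.7, 139 and 179.6 TPM against 6.69, 9.30 and 11.1 TPM (4.18, SE 0.18). Fermt2 therefore had the highest level of any adaptor in quiescent cells and lay close to Itgb1, whose tail kindlin-2 binds. Parva measured 170.2, 163, 141 and 162 TPM against 10.3, 13.3 and 12.4 TPM (3.63, SE 0.13). Ptk2 measured 51.2, 48.6, 41.3 and 55.2 TPM against 3.95, 3.73 and 4.06 TPM (3.34, SE 0.12). Ilk measured 278, 289, 303 and 255 TPM against 25.6, 34.4 and 35.5 TPM (3.12, SE 0.14). For Ilk, 89.7% of exon bases also lie in Taf10 or Rrp8, and for Vcl 25.5% lie in Ap3m1, all on the other strand, and the sources used here do not say whether the authors counted by strand. Pxn measured 45.5, 51.5, 41.3 and 40.8 TPM against 6.77, 11.3 and 10.3 TPM (2.15, SE 0.17), and came to 0.32 and 0.51 under the rescalings, where it was no longer called.

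The PINCH proteins split. While Lims1 was among the adaptors farthest above liver, Lims2 measured 5.50, 6.46, 8.27 and 5.32 TPM in quiescent cells and 36.0, 46.9 and 47.7 TPM in liver (log2 fold change -2.60, SE 0.16, adjusted p = 3.44e-08). Every liver library was above every quiescent library. In quiescent cells Lims1 was at 142 ± 4.93 TPM and Lims2 at 6.39 ± 1.35 TPM (SD, n = 4), whereas in liver Lims1 was at 2.14 ± 0.206 TPM and Lims2 at 43.5 ± 6.53 TPM (SD, n = 3).

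**Figure D2:**
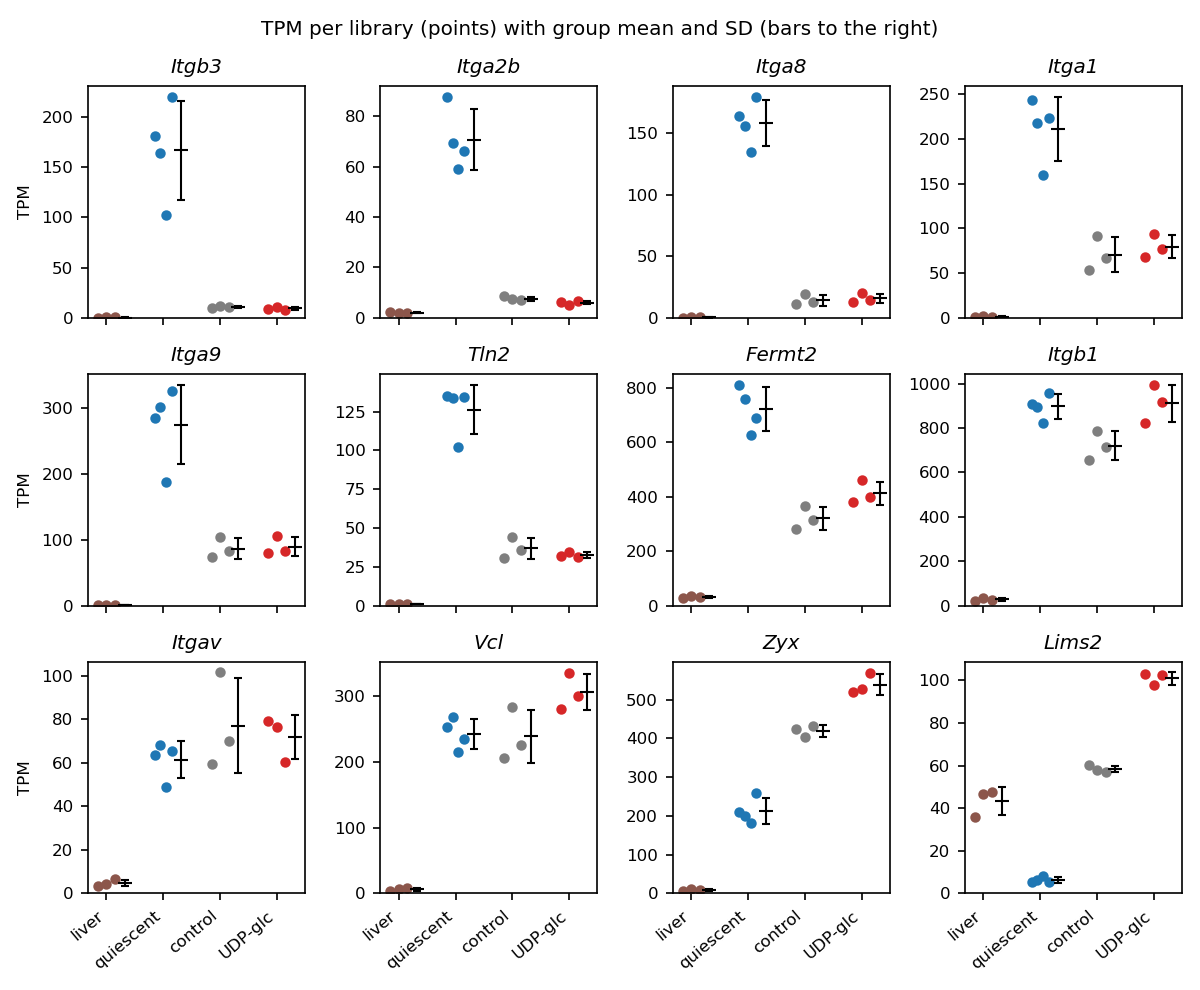
TPM of 12 members in each library (points, coloured by group) with the group mean and SD (black bars), on linear axes that start at 0 and differ between panels. Itgb3, Itga2b and Itga8 are high in quiescent cells alone, Itgav and Vcl of quiescent cells overlap control cultures, and Lims2 is low in quiescent cells and highest with UDP-glucose.

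Cultured control cells were next compared with quiescent cells, the step in which stellate cells attach to plastic. The design cannot tell culture apart from the strain label (Balbc against C57BL/6J), the sort or the table, since each differs between the groups in the same way. Of the 25 members tested, 8 were lower in culture (Itgb3, Itga8, Itga2b, Tln2, Itga9, Itgb8, Itga1 and Fermt2), 1 was higher (Lims2) and 16 were not called. Across all 12537 genes tested, 13.2% were lower and 18.6% higher (31.8% in either direction). The libraries of the groups did not overlap for 16 of 25 members, against 70.0% of all genes. The median log2 fold change was -0.21 over the members and 0.26 over all genes. Under the rescalings the all-gene median came to 0.02 and 0.08, the 8 members stayed called lower and Lims2 higher, 16.2% and 14.8% of all genes were lower, and 12.3% and 13.8% were higher.

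Of the 25 members tested, 11 were adaptors and the rest receptor chains. Receptor chains made up 6 of the 8 members that fell. Itgb3 was 9.60, 11.6 and 10.6 TPM in control cultures, 15.7-fold below its quiescent mean of 167 ± 49.03 TPM (log2 fold change -3.80, SE 0.22, adjusted p = 8.1e-07). Itga8 was 10.8, 19.3 and 12.7 TPM, 11.1-fold below its quiescent mean of 158 ± 18.6 TPM (-3.41, SE 0.18, adjusted p = 3.98e-07). Itga2b was 8.56, 7.31 and 6.90 TPM, 9.32-fold below its quiescent mean of 70.7 ± 12.2 TPM (-3.05, SE 0.14, adjusted p = 1.68e-07). Itgb3 and Itga2b pair with each other. For each of the 3 chains the highest cultured library was far under the lowest quiescent one. Pf4 fell too, from 38.1 ± 7.14 to 3.95 ± 1.74 TPM (log2 fold change -3.02, SE 0.22). Only 2 of the 11 platelet markers were tested here, and both were lower. Ppbp, Gp9, Gp1ba and Tubb1 averaged 0.0214 to 0.144 TPM in quiescent cells and were listed at 0 in all control cultures. Treml1 was listed at 0 in both groups. Itga9 was 73.8, 104 and 82.6 TPM, 3.17-fold below its quiescent mean of 275 ± 60.2 TPM (-1.64, SE 0.19, adjusted p = 5.59e-05). Itga1 was 54.0, 91.7 and 66.4 TPM, 2.99-fold below its quiescent mean of 211 ± 36.0 TPM (-1.58, SE 0.19, adjusted p = 7.3e-05). Itgb8 fell from 4.76 ± 1.45 to 0.858 ± 0.208 TPM (-1.61, SE 0.21). Beside these falls, 13 of 14 measured sinusoidal endothelial markers and 12 of 13 Kupffer markers were also lower in culture, as were 14 of 16 stellate markers. Over all genes, 13.2% were lower.

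Other receptor chains were not called. Itgav was 59.4, 101 and 70.0 TPM in control cultures, overlapping its quiescent range (log2 fold change 0.29, 95% interval -0.12 to 0.71). Itga5 was 20.95, 25.6 and 22.5 TPM, also overlapping (-0.13, -0.40 to 0.14). Itgb1 was 656, 788 and 716 TPM, below all 4 quiescent libraries (-0.32, adjusted p = 0.006) but short of the minimum fold. Itgb5 was 130.2, 143 and 139 TPM, again below all 4 (-0.75, adjusted p = 6.58e-06), and passed the minimum fold at -1.01 under median-of-ratios rescaling. Itga3 was 9.83, 10.2 and 9.82 TPM (-0.57). Itga6, Itga10 and Itgb7 gave -0.21, 0.02 and -0.18.

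The make-up of the integrin RNA differed between the groups. Itga9, Itga1 and Itga8 held 33.0%, 25.5% and 19.2% of the summed TPM of alpha chains in quiescent cells, and Itgav 7.45%. In control cultures Itga9 held 29.3%, Itga1 23.6%, Itga8 4.74% and Itgav 25.6%. Among beta chains, Itgb1 held 69.0% in quiescent cells and 82.6% in control cultures, while Itgb3 held 12.6% and 1.22%. In each of the 4 quiescent libraries the share of Itgb3 (8.85% to 15.5%) was above that of each control culture (1.202% to 1.228%). In each control culture the share of Itgav (24.2% to 27.4%) was above that of each quiescent library (7.09% to 7.90%). A share also moves with the other chains of the sum. The TPM of Itgav itself overlapped between these groups and was not called, while Itga9, Itga1 and Itga8 were called lower in culture.

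**Figure D3:**
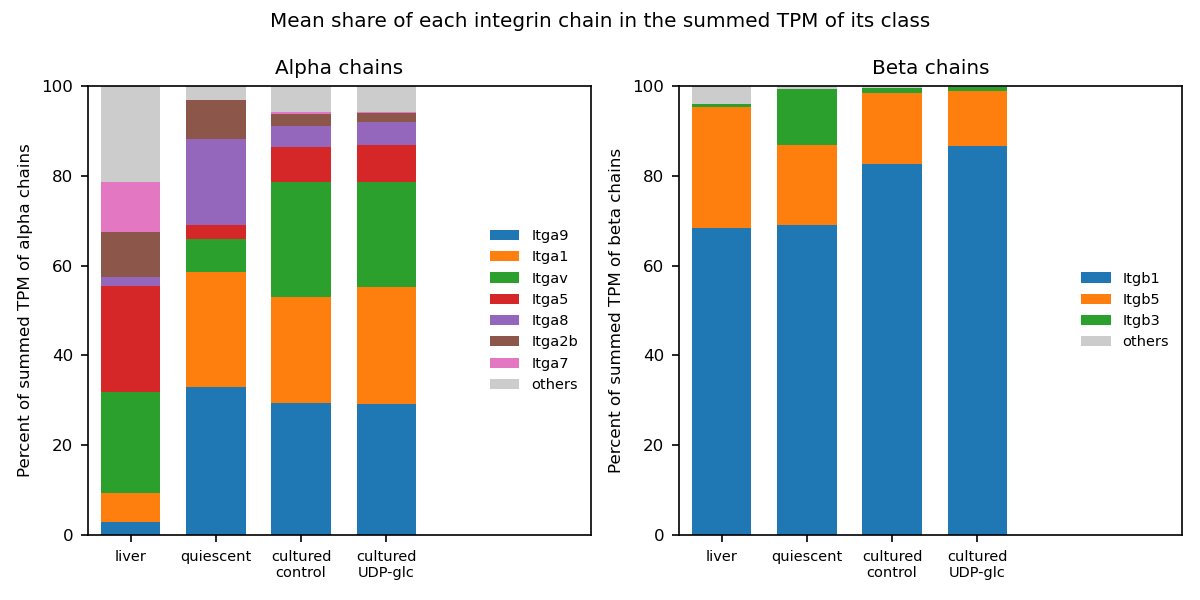
Mean share of each integrin chain in the summed TPM of all alpha chains (left) and all beta chains (right), in percent, for the 4 bulk groups, with chains that reach 7% in no group pooled in grey. From quiescent cells to control cultures the share of Itgav grows from 7.45% to 25.6%, although its TPM overlaps between these groups. The share of Itgb3 shrinks from 12.6% to 1.22%.

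In culture, 2 of the 11 adaptors were called lower and 1 higher, beside 13.2% of all genes lower and 18.6% higher. The 2 lower were Tln2 and Fermt2. Tln2 was 30.6, 44.2 and 35.8 TPM against a quiescent mean of 126 ± 15.9 TPM (log2 fold change -1.76, SE 0.14, adjusted p = 5.22e-06). Fermt2 was 281, 366 and 316 TPM against 722 ± 81.1 TPM (-1.17, SE 0.11, adjusted p = 1.68e-05). Tln1, the other talin, was 122, 187 and 134 TPM and overlapped its quiescent range (-0.30, 95% interval -0.68 to 0.09). Vcl was 206, 284 and 226 TPM (-0.03, -0.30 to 0.23), and Pxn was 42.1, 48.7 and 44.9 TPM (0.02, -0.21 to 0.24). Both overlapped the quiescent cells. Zyx was 424, 403 and 432 TPM, above every quiescent library, and at 0.99 (SE 0.11, adjusted p = 4.4e-05) lay just under the minimum fold, which it passed without control library 2 (1.02) or without quiescent library 4 (1.09). Ilk was 437, 451 and 444 TPM, also above every quiescent library (0.66, adjusted p = 2.75e-05), but Taf10, on the other strand of the same exons, was itself higher in culture, at 189 ± 22.3 TPM against 54.2 ± 5.03 TPM. Parva was 154, 202 and 178 TPM (0.16), Lims1 151, 180.2 and 158 TPM (0.19) and Ptk2 63.1, 65.9 and 60.1 TPM (0.36), none of them called.

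Lims2 was the exception. It measured 60.05, 57.9 and 57.1 TPM in control cultures, 9.13-fold above its quiescent mean of 6.39 ± 1.35 TPM (log2 fold change 3.02, SE 0.14, adjusted p = 1.92e-07), and its cultured libraries were above all quiescent and all liver libraries. Lims1 and Lims2, whose products compete for the same site on integrin-linked kinase, were at 163 ± 15.4 and 58.3 ± 1.54 TPM in these cultures (SD, n = 3). Cell types that carry Lims2 in the single-cell data (given below) were read beside this. The summed TPM of 11 vein endothelial markers was 504 to 556 in quiescent cells and 260.1 to 339.5 in control cultures. That of 14 sinusoidal endothelial markers was 6801 to 7865 and 794 to 822. In control cultures Plvap was at 715 ± 13.0 TPM and Stab2 was listed at 0. The hepatocyte marker sum was 58.1 to 79.7 in quiescent cells and 234 to 267 in control cultures. Nearly all of the latter was Ass1 (235 ± 8.22 TPM), with Apoa1 at 6.29 ± 7.88 TPM and Alb at 0.357 ± 0.222 TPM. The part of these cell types in the Lims2 level was not tested.

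UDP-glucose was then compared with control cultures, within 1 table, strain label and culture. No integrin chain was called, and 1 adaptor, Lims2, rose. Of 24 members tested, 1 was called higher and 0 lower at an adjusted p under 0.05 (limma), against 0.428% of all 12161 genes higher and 0.181% lower (0.609% in either direction). At an unadjusted p under 0.05, 8 members were higher and 0 lower, beside 1220 genes in either direction over the whole table. Lims2 measured 103, 97.5 and 102 TPM with UDP-glucose, all above the 60.05, 57.9 and 57.1 TPM of the controls (1.73-fold, log2 fold change 0.78, SE 0.060, adjusted p = 0.00277), and it was called in each of the 12 alternative settings run. The hepatocyte marker sum was 225 to 235 with UDP-glucose against 234 to 267 without, and the vein endothelial sum was 272 to 309 against 260.1 to 339.5. Ass1, most of the hepatocyte sum, averaged 207 ± 7.23 TPM with UDP-glucose and 235 ± 8.22 TPM without. Apoa1 averaged 13.7 ± 0.748 against 6.29 ± 7.88 TPM, and Alb 1.42 ± 1.68 against 0.357 ± 0.222 TPM (SD, n = 3). Of the 4 hepatocyte markers tested, 2 had a fold change above 0 and 0 were called (median 0.75). The part of hepatocyte RNA in the Lims2 level was not tested.

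Other adaptors lay higher in the treated cultures without passing the test. Zyx was 520.2, 527 and 569.9 TPM, above all controls (log2 fold change 0.36, SE 0.059, limma adjusted p = 0.0533). It passed the threshold when only genes averaging 5 TPM or more were tested (adjusted p = 0.0420), and in no other setting. Over the 12 alternative settings its adjusted p ran from 0.0420 to 0.712. Ilk was 573, 546 and 528 TPM, above all controls (0.31, SE 0.053, adjusted p = 0.0623), while its overlap partners Taf10 and Rrp8 gave 0.07 and 0.22. Fermt2 was 382, 460.3 and 397 TPM, above all controls (0.37, adjusted p = 0.298). The groups of these 3 did not overlap. Vcl was 281, 336 and 301 TPM (0.37, 95% interval 0.08 to 0.65), Lims1 167, 234 and 219 TPM (0.33), Parva 208, 227 and 196 TPM (0.25) and Tln1 147, 197 and 149 TPM (0.16). Each of these overlapped the controls in at least 1 library. Ptk2 was 62.0, 65.5 and 62.1 TPM (0.00, -0.15 to 0.16), Tln2 31.9, 34.5 and 31.4 TPM (-0.16) and Pxn 41.0, 42.9 and 36.6 TPM (-0.17). In all, 9 of 11 adaptors had a fold change above 0, with a median of 0.31, beside a median of -0.05 over all genes, of which 36.1% were above 0.

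Of the integrin chains, Itgb1 was 824, 991 and 918 TPM with UDP-glucose, above all controls (log2 fold change 0.34, SE 0.091, adjusted p = 0.248). Itga2b was 6.28, 5.28 and 6.50 TPM, below all controls (-0.29, adjusted p = 0.545). With Lims2, Zyx, Ilk and Fermt2 these make 6 of 24 members whose libraries did not overlap, against 16.3% of all genes. Itgav was 79.0, 76.4 and 60.3 TPM (-0.07, 95% interval -0.52 to 0.38) and Itgb3 8.92, 11.2 and 8.17 TPM (-0.16, -0.50 to 0.17). Itgb5 was 127, 128 and 132 TPM (-0.09, -0.23 to 0.05) and Itga5 25.2, 26.2 and 23.2 TPM (0.11, -0.13 to 0.35). The upper bounds of these 4 intervals were all below the 0.78 of Lims2. Itga1 was 68.3, 93.6 and 77.5 TPM (0.19), Itga8 12.8, 19.8 and 14.8 TPM (0.15), Itga9 79.9, 106 and 83.1 TPM (0.05) and Itga3 10.6, 11.4 and 8.68 TPM (0.03). All overlapped the controls. Itga6, Itga7 and Itga10, the other tested chains, gave 0.33, -0.35 and -0.41.

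**Figure D4:**
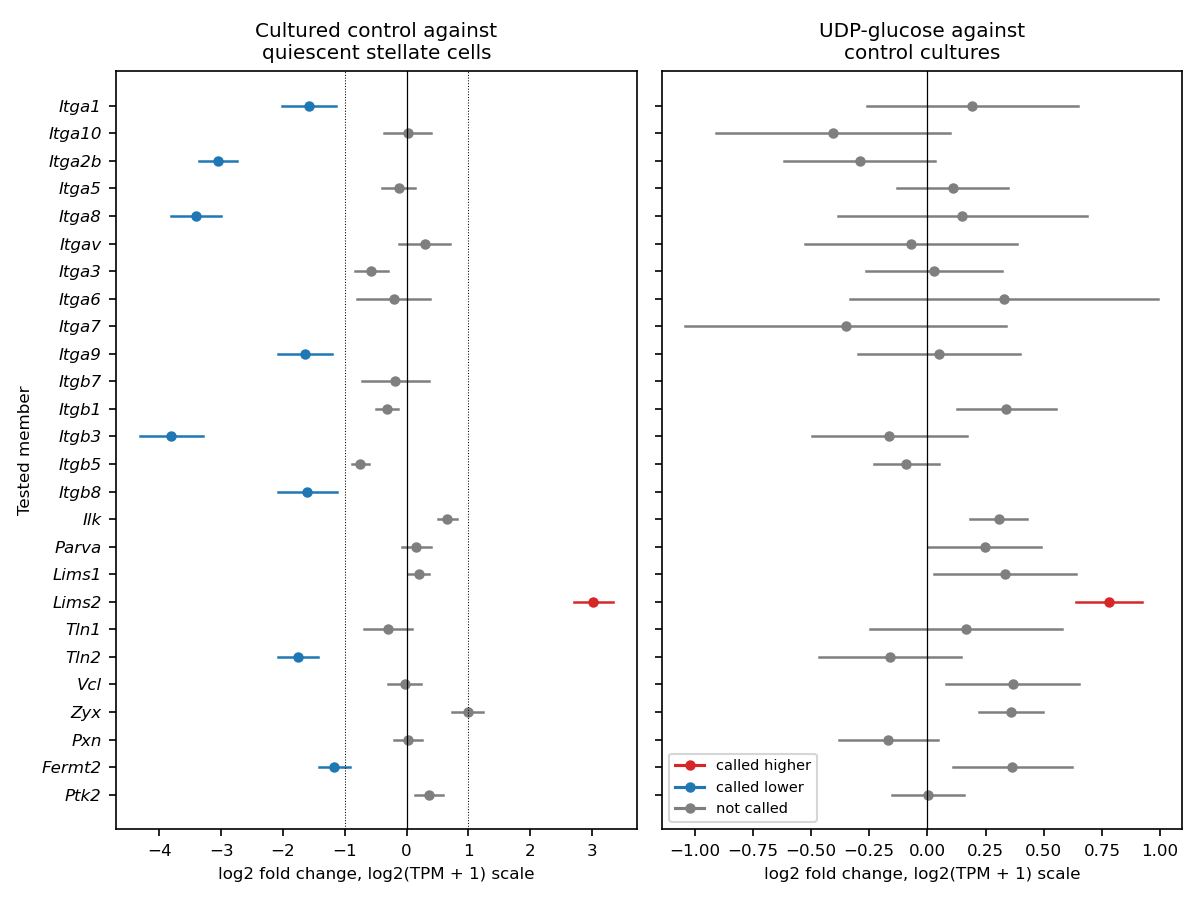
Log2 fold change on the log2(TPM + 1) scale (points) with 95% intervals (lines) for each tested member, in control cultures against quiescent cells (left, dotted lines at the minimum fold of 1) and in UDP-glucose against control cultures (right, on a narrower axis). Both panels use the same control libraries. Itgb3, Itga8 and Itga2b lie farthest to the left in the first panel, and Lims2 is the only member called higher in either.

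The genes around the receptors were read from lists of gene names. These lists of regulators and ligands were chosen with earlier results of these data known, so their counts are no test of either list as a set. Of 53 other regulators of integrins and focal adhesions, 43 of 48 tested were higher and 2 lower in quiescent cells than in liver, beside 67.0% of all genes higher and 10.9% lower, with the largest folds for Csrp1 (1.86 to 463 TPM, log2 fold change 7.35), Flna (3.58 to 513 TPM, 6.86), Tns3 (2.16 to 234 TPM, 6.21), Nedd9 (0.346 to 98.5 TPM, 6.20), Tgfb1i1 (0.398 to 89.3 TPM, 6.02) and Src (0.514 to 80.4 TPM, 5.75). In control cultures against quiescent cells, 7 of 46 were higher and 5 lower, near the shares over all genes (18.6% higher and 13.2% lower), so the counts set the list apart in neither direction. Itgb1bp1, which binds the Itgb1 tail, rose from 26.3 to 116.6 TPM (2.11), Pdlim7, an actin-associated PDZ-LIM protein, from 84.9 to 256 TPM (1.59), the actin crosslinker Flna from 513 to 1344 TPM (1.38) and Tgfb1i1, a paxillin relative, from 89.3 to 222 TPM (1.31). Enah, which promotes actin filament growth, fell from 10.975 to 4.25 TPM (-1.25). With UDP-glucose, 1 of 46 was higher and 0 lower, beside 0.428% of all genes higher and 0.181% lower. The 1 was the LIM protein Csrp1 (606, 585 and 618 TPM in controls, 809.8, 772 and 792 TPM with UDP-glucose, log2 fold change 0.39, SE 0.050, adjusted p = 0.024).

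Of 47 integrin ligands, 35 of 42 tested were higher and 4 lower in quiescent cells than in liver, beside 67.0% of all genes higher and 10.9% lower. Tgfbi (5.47 to 4425 TPM, log2 fold change 9.48), Postn (1.98 to 1314 TPM, 8.75), Col3a1 (3.44 to 1544 TPM, 8.46), Ccn2 (1.81 to 873 TPM, 8.30) and Col4a1 (3.90 to 1410 TPM, 8.18) were higher, and the fibrinogen chain Fgg, made by hepatocytes, was lower (1633 to 0.509 TPM, -10.09). In control cultures, 22 of 40 ligands were lower than in quiescent cells and 2 higher, beside 13.2% of all genes lower and 18.6% higher. Tgfbi fell to 143 TPM (-4.94), Vtn from 24.6 to 1.29 TPM (-3.55), Col1a2 from 572 to 70.9 TPM (-3.00), Fn1 from 774 to 95.9 TPM (-2.98), Lama2 from 52.5 to 5.88 TPM (-2.95) and Thbs2 from 94.0 to 12.0 TPM (-2.87). Tgfbi and Vtn proteins bind receptors of the Itgav and Itgb3 family.

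With UDP-glucose, 3 of 37 tested ligands were higher and 0 lower, beside 0.428% of all genes higher and 0.181% lower. As the ligands were chosen with earlier results of these data known, this count is no test of ligands as a set. Ccn2, a matricellular protein that binds Itgav and Itgb3 receptors, measured 614, 638 and 648 TPM in controls and 1591, 1734 and 1663 TPM with UDP-glucose (log2 fold change 1.39, SE 0.055, adjusted p = 0.00015). Ccn1, its relative, measured 448, 449.9 and 485 TPM in controls and 704, 807 and 754 TPM with UDP-glucose (0.71, SE 0.067, adjusted p = 0.006). Tgfb3, whose latent form is an integrin ligand, measured 87.7, 100.7 and 94.8 TPM in controls and 252, 262 and 254 TPM with UDP-glucose (1.43, SE 0.066, adjusted p = 0.00019). The groups of these 3 did not overlap, as for 12 of the 37 ligands in all, against 16.3% of all genes. The median over the 37 ligands was -0.01.

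The single-cell library gives the UMIs of each member by cell class of a normal liver. It held 5063 barcodes with 12101368 UMIs (unique molecular identifiers, counts of captured RNA molecules) and a median of 1983 UMIs per barcode, and 4808 were kept. Cells were clustered without the members, and 18 of 21 clusters were named from markers into 11 classes, among them 371 stellate-like, 2131 sinusoidal endothelial-like, 283 vein endothelial-like, 420 Kupffer-like and 491 hepatocyte-like cells. The other 200 cells were left unnamed, including 109 led by Gzma, Ccl5 and Ncr1 and 48 that carried both Kupffer and stellate genes. Levels are UMIs summed per class and given as CPM (scaled to a fixed total of UMIs per class), with exact Poisson 95% intervals that cover counting error only. As this is 1 sample there is no test between classes, and classes differ in depth (median UMIs 3093 in stellate-like and 1807 in sinusoidal endothelial-like cells). UMIs of genes foreign to a class were common: 49.5% to 81.4% of the cells of each class other than hepatocyte-like held a UMI of the hepatocyte genes Alb or Apoa1, and Stab2, a sinusoidal endothelial marker, was at 1379 CPM (1343 to 1416) in its own class, 383 CPM (349 to 420) in stellate-like and 329 CPM (292 to 369) in T cell-like cells. The part of such RNA in the levels below was not tested.

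Among the 29 members with at least 20 UMIs, 12 had their highest point estimate in stellate-like cells, whether or not intervals overlapped: Itga1, Itga2b, Itga3, Itga8, Itgb1, Itgb3, Ilk, Parva, Lims1, Tln2, Vcl and Fermt2. The number was 11 when only barcodes with at least 1000 UMIs were kept, 13 with coarser clusters and 12 by share of cells after thinning each cell to 1000 UMIs. Fermt2 was at 525 CPM (485 to 567) in stellate-like cells and 234 CPM (219 to 250) in sinusoidal endothelial-like cells. Itgb1 was at 463 CPM (426 to 503) and 293 CPM (276 to 310). Tln2 was at 154 CPM (133 to 178) and 7.22 CPM (4.84 to 10.4), and 70.9% of all its 265 UMIs came from stellate-like cells. Tln1 was spread more widely: 193 CPM (169 to 220) in stellate-like, 205 CPM (191 to 220) in sinusoidal endothelial-like and 305 CPM (270 to 342) in Kupffer-like cells. All but 1 of the 9 UMIs of Itgb8 also came from stellate-like cells.

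Several integrin chains with large folds in the bulk comparison also had UMIs in endothelial-like cells. Itga8 was at 107 CPM (89.7 to 127) in stellate-like and 84.9 CPM (76.1 to 94.4) in sinusoidal endothelial-like cells, against 4.87 CPM (1.96 to 10.0) in hepatocyte-like, 11.5 CPM (3.75 to 26.9) in B cell-like and 29.0 CPM (18.9 to 42.5) in T cell-like cells. It was seen in 29.9% of stellate-like and 14.5% of sinusoidal endothelial-like cells, and after thinning in 10.6% and 7.90%, with hepatocyte-like cells at 1.43% and 1.27%. There were 8.87 Itga8 UMIs per 1000 Dcn UMIs in stellate-like and 554 in sinusoidal endothelial-like cells. Itga9 was at 180.2 CPM (157 to 206), 187 CPM (174 to 201) and 183 CPM (157 to 213) in stellate-like, sinusoidal endothelial-like and Kupffer-like cells, with overlapping intervals, and at 13.2 CPM (7.96 to 20.6) in hepatocyte-like cells. Itga1 was at 85.2 CPM (69.6 to 103) in stellate-like and 52.5 CPM (45.7 to 60.1) in sinusoidal endothelial-like cells. Itgb3 was at 104 CPM (86.7 to 124) and 40.8 CPM (34.8 to 47.6), and Itga2b at 34.4 CPM (24.8 to 46.5) and 9.96 CPM (7.12 to 13.6), so both chains of the platelet receptor were highest in stellate-like cells. Pf4 was at 60.6 CPM in stellate-like and 86.1 CPM in Kupffer-like cells. The platelet markers Ppbp and Gp9 had 0 and 1 UMIs in stellate-like cells, and 1 and 2 UMIs in Kupffer-like cells.

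Lims2 was lower in stellate-like than in endothelial-like or hepatocyte-like cells, and lower still by point estimate in several immune classes. It was at 13.9 CPM (8.11 to 22.3) in stellate-like cells from 17 UMIs, 50.8 CPM (39.8 to 63.8) in hepatocyte-like, 51.0 CPM (44.3 to 58.5) in sinusoidal endothelial-like and 97.6 CPM (74.0 to 127) in vein endothelial-like cells. With barcodes of at least 1000 UMIs the last 2 classes were drawn differently and held 38.9 and 139.8 CPM. Lims1 was at 210.5 CPM (186 to 238) in stellate-like and 18.8 CPM (12.4 to 27.3) in hepatocyte-like cells. In Kupffer-like cells Lims1 was at 58.1 CPM (43.7 to 75.8) and Lims2 at 7.53 CPM (3.03 to 15.5), and in T cell-like cells Lims1 was at 65.8 CPM (50.1 to 84.9) and Lims2 at 7.81 CPM (3.14 to 16.1). More Lims1 than Lims2 was therefore seen in stellate-like cells but was not particular to them.

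Leukocyte integrins, close to 0 in bulk stellate cells, lay in immune classes. Itgal, a chain of the leukocyte receptor LFA-1, was at 493 CPM (449 to 540) in Kupffer-like cells, in 57.6% of them, against 10.6 CPM (5.67 to 18.2) in stellate-like and 10.4 CPM (5.84 to 17.2) in hepatocyte-like cells. Its partner Itgb2 was at 116 CPM (95.4 to 140) in Kupffer-like, 175 CPM (149 to 205) in T cell-like and 388 CPM (313 to 475) in the cells led by Gzma and Ncr1. Itgb7 (208 CPM, 155 to 275) and Itgax (125 CPM, 84.4 to 179) were highest by point estimate in the latter cells too. Their intervals overlapped those of T cell-like cells for Itgb7 (138 CPM, 115 to 165) and MHC class II myeloid-like cells for Itgax (83.4 CPM, 57.1 to 118). Itga4, the partner of Itgb7, was highest by point estimate in MHC class II myeloid-like cells at 130 CPM (96.7 to 172). That interval overlapped the one of plasmacytoid dendritic-like cells (96.9 CPM, 63.3 to 142). Kupffer-like cells also held more Itgb5 (182 CPM, 156 to 211) than stellate-like cells (114 CPM, 95.7 to 134). Zyx was at 258 CPM (227 to 293) in Kupffer-like, 253 CPM (205 to 308) in MHC class II myeloid-like and 180.2 CPM (157 to 206) in stellate-like cells. Itgav was at 84.0 CPM (66.4 to 105) in Kupffer-like and 60.6 CPM (47.6 to 76.1) in stellate-like cells, with overlapping intervals. The members Itga2, Itga7, Itga10, Itga11, Itgad, Itgb4, Itgb6 and Itgb8 had fewer than 20 UMIs in all.

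**Figure D5:**
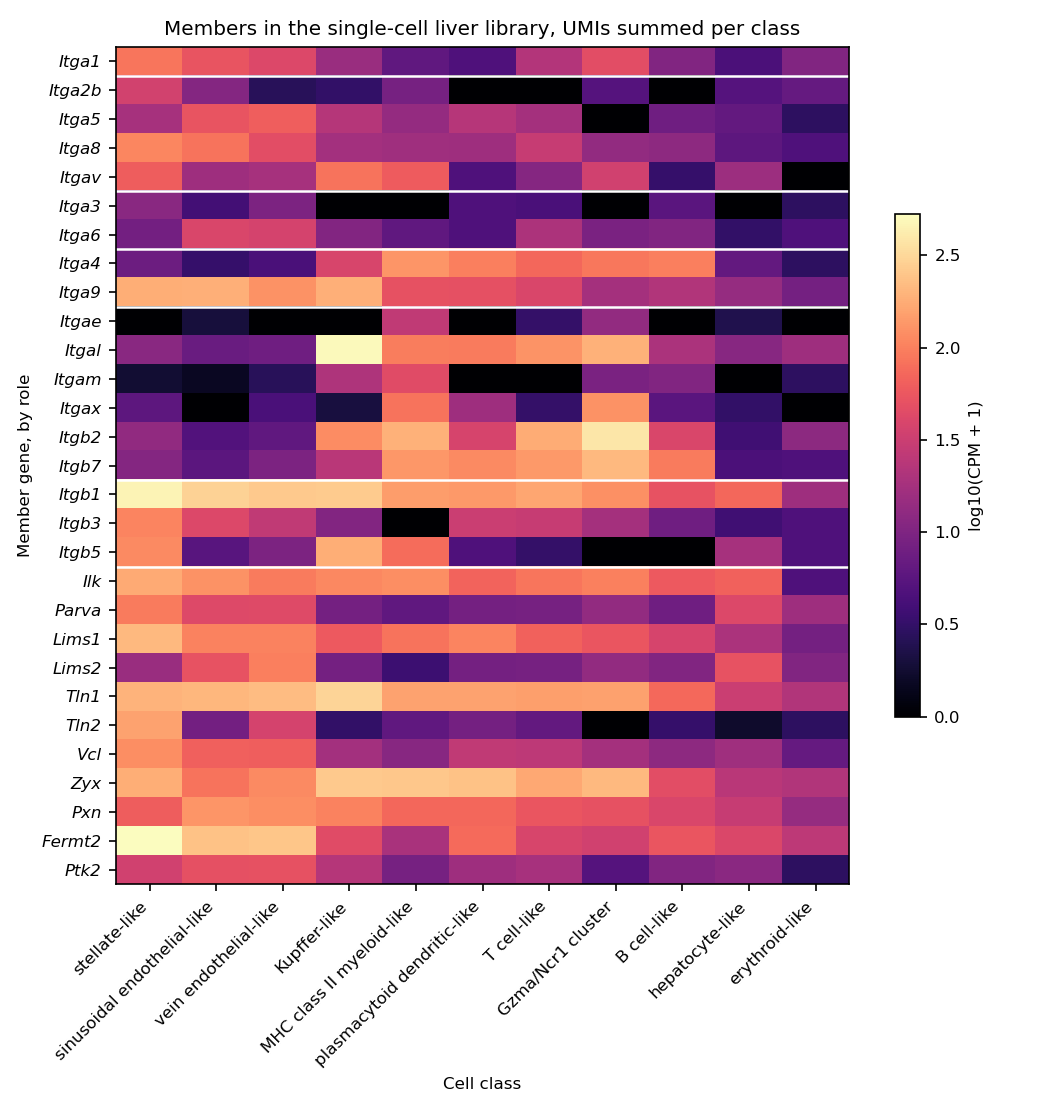
Level of the 29 members with at least 20 UMIs (rows, by role) in 10 named cell classes and the unnamed cells led by Gzma and Ncr1 (columns) of the single-cell liver library, as log10(CPM + 1) of UMIs summed per class. Fermt2, Itgb1 and Tln2 are brightest in stellate-like cells, Itga8 and Itga9 are also bright in sinusoidal endothelial-like cells, Lims2 is dim in stellate-like cells, and Itgal is brightest in Kupffer-like cells.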

How the data were processed

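RNA was measured in 13 bulk mouse libraries and 1 Chromium single-cell library. Per the submitters' processing notes, the tools were bcl2fastq 2.19, kallisto 0.44.0, DESeq2 and Cell Ranger, with GRCm38 and mm10 as builds. The authors deposited TPM per gene in 3 bulk tables and raw UMI counts per gene and barcode for the single cells, per the file headers and values. Of 35197 gene rows, 26 whose names had become dates (at most 0.319% of the TPM of a library) were dropped. TPM columns summed to 998190 to 999797, so read depth is not kept and cannot weight the libraries, and the sources used here do not say whether strand was used in counting.

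Each comparison was fitted with limma 3.58.1 (R 4.3.3, trend) on log2(TPM + 1) of the libraries compared, for genes averaging 1 TPM or more, with Benjamini-Hochberg adjustment over all genes tested. A call needed an adjusted p under 0.05, and for the comparisons with quiescent cells also a log2 fold change of 1 or more in either direction. A fold change on this scale understates that of low genes, while N-fold values are ratios of mean TPM. Members that averaged 5 TPM or more in any group were named with their values. The members and the lists of markers, regulators and ligands were chosen with earlier results of these data known.

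Barcodes with 500 or more UMIs, 200 or more genes and no more than 20% of UMIs from mitochondria were clustered with scanpy 1.11.5 (2000 variable genes without the members, 30 components, 15 neighbours, Leiden resolution 1) and named from at least 3 markers. No doublet caller was run, so doublets remain. UMIs were summed per class, intervals are exact (Poisson for CPM, Clopper-Pearson for shares, 95%), and all 5063 barcodes were distinct. Gene positions are from GENCODE M21, and promoters from RefSeq. Alternatives were other pseudocounts, filters and scalings, 1 fit over all libraries, each library left out, at least 1000 UMIs, coarser clusters and thinning to 1000 UMIs.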

Additional observations from a re-analysis of the deposited data

Results flagged for a closer look

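In the quiescent group of 4 libraries, 6 of 36 members tested had 1 library far from the other three by Dixon's criterion, which chance meets in about 1 in 20 groups. Itga2 was highest in library 4 at 0.413 TPM, against 0.302 to 0.321 TPM in the others. In library 3, Itgad was at 0.979 TPM and listed at 0 elsewhere, Itgax was at 0.621 TPM against 0 to 0.0547 TPM, and Itgb4 was at 0.555 TPM against 0.0880 to 0.146 TPM. Itgb2 was lowest in library 2 at 0.941 TPM, against 1.55 to 1.62 TPM. These 5 lie near or under 1 TPM. Tln2 was lowest in library 3 at 102.5 TPM, against 134 to 135 TPM, and was called in both comparisons with quiescent cells when that library was left out.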

How the results depend on the processing

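With UDP-glucose, 1 member was called higher and 0 lower in every setting except a minimum mean of 5 TPM, which gave 2 higher (Zyx joined Lims2). In quiescent cells against liver that filter gave 1 member lower, since Itga7 was no longer tested. Itga6 was reversed under quantile normalisation, at -0.19 (adjusted p = 0.335). In control cultures against quiescent cells, leaving out control library 2 or quiescent library 4 gave 2 members higher. Over all libraries left out in turn, this comparison gave 1 to 2 members higher and 8 to 9 lower, quiescent cells against liver 22 to 22 higher and 2 to 2 lower, and UDP-glucose 1 to 1 higher and 0 to 0 lower. A pseudocount of 0.1 TPM added Itga10, Itgal and Itgb2 to the members higher in quiescent cells, for 25. Of the fold changes of single members under all alternatives, 944 kept their call, 7 gained it, 5 lost it and 1 was reversed. Where the cause is not named, it was not tested. In the single cells, 4 of 94 levels moved beyond their interval with at least 1000 UMIs, 2 of 84 with coarser clusters, and 91 of 94 shares of cells moved with thinning. No paired analysis was run, because the labels give the groups no shared replicate numbers and library numbers here only follow label order. Library 2 was the highest of its group for 18 of 21 members in control cultures and for 15 in UDP-glucose cultures. Library 1 was the lowest for 16 and 11. Whether cultures of the same number were prepared together is not said and was not tested. Depth is unknown for the bulk libraries, and the 1 single-cell library allows no test between classes.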
